A study of Mus musculus with 12 samples.

Results

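The 50 genes described here encode the machinery of mitosis and of the kinetochore, chosen as a list of names covering mitotic kinases and cyclins, the spindle checkpoint, kinetochore proteins, condensins, spindle motors and cytokinesis factors. Earlier results of these data were known when the list was chosen. All 50 of 50 were found in the authors' expression table, which holds only genes called at an adjusted p under 0.05 in either direction. It lists 7978 genes, 53.5% of the 14924 that the adjustment of its p-values implies were tested. The cells were primary keratinocytes from newborn mouse epidermis, separated from the dermis and grown to passage 3 on 3T3 fibroblast feeders stopped from dividing with mitomycin C. The undifferentiated group (day 0) was kept in low-calcium medium, and the differentiated group (day 4) followed a calcium shift, the usual switch that makes cultured keratinocytes differentiate. No genotype, strain or transgene is named in the labels, and both groups share the feeder culture. Polyadenylated RNA was fragmented and either sequenced directly (input) or after immunoprecipitation of fragments that carry N6-methyladenosine (m6A), the commonest internal mark of messenger RNA, giving 3 input and 3 immunoprecipitated libraries per day, 12 in all.

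Cells enter mitosis when cyclin B and cyclin A activate the kinase Cdk1, with Plk1 and the Aurora kinases acting beside it. Condensins and topoisomerase II then fold the chromosomes, kinetochores assembled on centromeres attach them to the spindle, and the spindle checkpoint holds back Cdc20 until every kinetochore is attached. Separase then cuts the sisters apart and the cell divides by cytokinesis. Most of these genes are transcribed in a burst from late S phase to mitosis and are silent in cells that have left the cycle. In the epidermis, dividing cells sit in the basal layer, and keratinocytes cease dividing as they differentiate.

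None of the 4 files holds a value per library. The expression values are therefore the authors' mean normalized count over the libraries compared, their log2 fold change (day 4 over day 0) and its standard error (SE), and the depth of each library is unknown. No label ties a replicate to an animal or a culture, so the adjusted p-values measure only the spread between these libraries, which may be technical. In bulk RNA, fewer cells of a type and less RNA per cell cannot be told apart. The cell type check gave keratinocyte markers at high level. Of 11, 10 were in the expression table, 6 higher and 4 lower at day 4. The summed implied level of the listed markers was 410075 normalized counts at day 0 and 770044 at day 4. Krt14, with the highest mean normalized count of them (209000), was higher (log2 fold change 1.06), whereas Itga6 (-0.99) and Trp63 (-0.92) were lower. The sum mainly follows the most abundant markers and does not describe the list as a whole. Of 15 fibroblast feeder markers, 5 were higher, 1 was lower and 9, among them Col1a1, Thy1, Vim and Dcn, were not listed. The 6 listed ones had a summed implied level of 2262 at day 0 and 6654 at day 4. Levels of the 9 others are unknown, so this sum does not measure the amount of feeder RNA. The part of the feeder cells in the results below was not tested. An implied level is the mean normalized count of 1 day, computed here from the authors' mean and fold change with equal numbers of libraries per day. It is not corrected for gene length and has no error of its own.

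Every one of the 50 genes was lower at day 4, each at an adjusted p under 0.05, whereas 26.4% of all genes tested were called lower. The median log2 fold change was -2.39, which is 5.25-fold lower, with an interquartile range from -2.72 to -2.12 in the authors' deposited table. Over all 7978 genes of that table the median was 0.26, and over its 3938 lower genes it was -0.79. A fall of at least 4-fold was seen in 42 of the 50, and in 3.2% of all genes tested. At least 2-fold falls numbered 49, against 9.9% of all genes tested. The SE of single genes ran from 0.09 to 0.23 on the log2 scale, with a median of 0.14. Among the 100 genes of the authors' deposited table with the most negative test statistics, 18 were of this list.

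Of 49 neighbouring pairs in the order of the falls, only 1 differed by more than 2 combined SEs, the pair of Ncapd2 and Bub3. Neighbours in a sorted order are close by construction, so the lack of other gaps says little. Genes further apart in the order, such as Anln (-3.09, SE 0.11) and Ncapd2, differed by more than their errors. Bub3, a checkpoint protein that also serves in interphase, was the exception of the list, at -0.44 (SE 0.09, adjusted p = 1.3e-05 by the authors' DESeq2 test) in the authors' deposited table. The next smallest fall was that of the condensin subunit Ncapd2, at -1.53 (SE 0.11), a gap of 1.09 with a combined SE of 0.14. At the other end, Anln, Spc24, Ect2 and Ccna2 fell by more than 8-fold and lay within their errors of each other in the authors' deposited table, as the plot of the 50 changes shows.

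**Figure D1:**
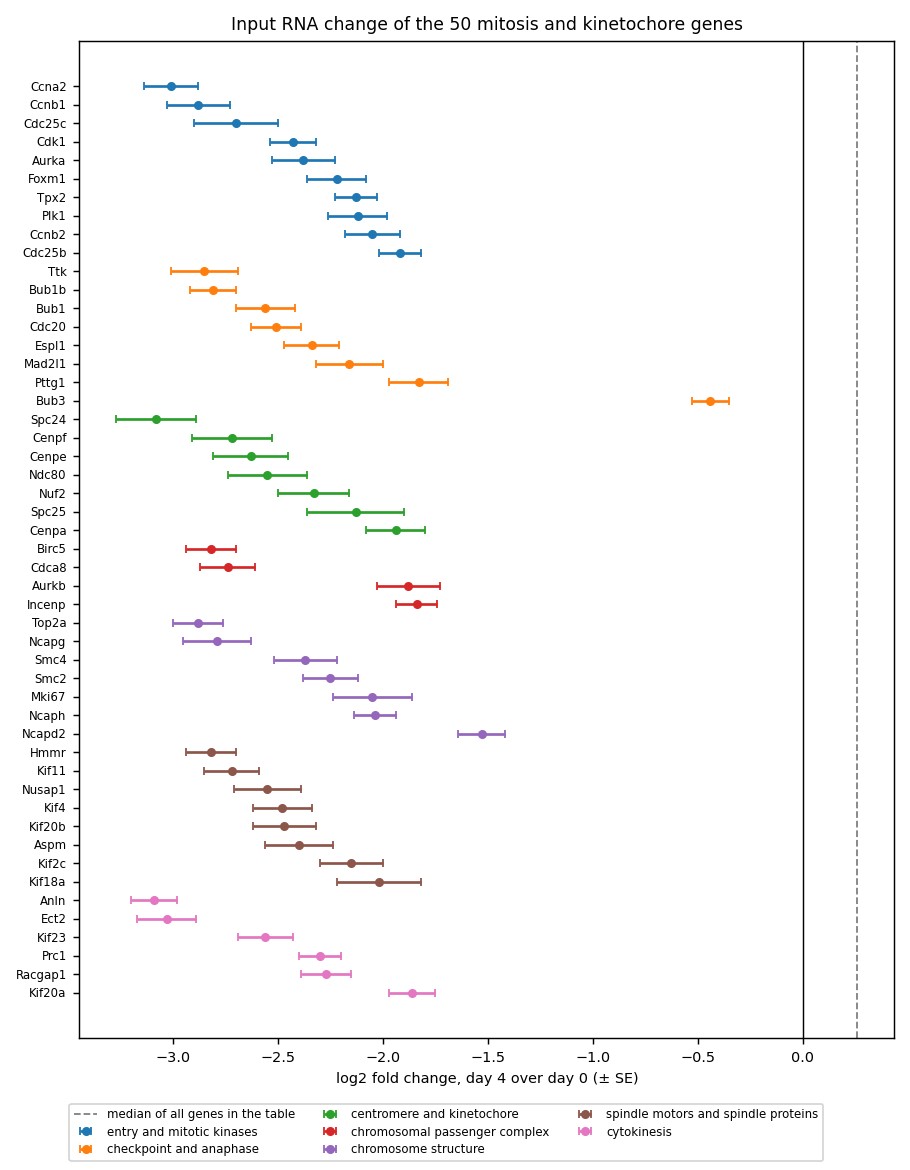
Log2 fold change of input RNA (day 4 over day 0, horizontal axis, with bars of 1 SE as deposited by the authors) for each of the 50 genes, coloured by role; the dashed line is the median of all listed genes, 0.26. All 50 points lie below 0, and Bub3 at -0.44 stands apart from the other 49.

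Genes that start mitosis were lower in 10 of 10 cases (median log2 fold change -2.30). The authors' deposited table gave cyclin A2 (Ccna2) a log2 fold change of -3.01 (SE 0.13), with implied levels of 1828 at day 0 and 227 at day 4. Cyclin B1 (Ccnb1) was at -2.88 (SE 0.15) and cyclin B2 (Ccnb2) at -2.05 (SE 0.13) in the authors' deposited table, so the B cyclins, which bind the same kinase, fell by different amounts, 7.37-fold and 4.14-fold. Their partner Cdk1 was at -2.43 (SE 0.11), from an implied 1476 to 274.5 normalized counts (authors' deposited table). The phosphatases that activate Cdk1 also differed, with Cdc25c at -2.70 (SE 0.20) and Cdc25b, the smallest fall of this group, at -1.92 (SE 0.10) in the authors' deposited table. The Polo kinase Plk1 was at -2.12 (SE 0.14), Aurora A (Aurka) at -2.38 (SE 0.15) and its spindle activator Tpx2 at -2.13 (SE 0.10) in the authors' deposited table. Foxm1, the transcription factor that drives many G2 and mitosis genes, was at -2.22 (SE 0.14) in the same authors' deposited table.

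Checkpoint and anaphase genes were lower in 8 of 8 cases (median -2.43). The kinase Ttk, also called Mps1, which starts the checkpoint, had the largest fall (-2.85, SE 0.16), next to Bub1b, which encodes the checkpoint inhibitor BubR1 (-2.81, SE 0.11), in the authors' deposited table. Bub1, their kinase partner, was at -2.56 (SE 0.14) and the checkpoint target Cdc20 at -2.51 (SE 0.12) in the authors' deposited table. For Mad2l1, the Mad2 protein, the value was -2.16 (SE 0.16) in the authors' deposited table. Separase (Espl1) was at -2.34 (SE 0.13) and its inhibitor securin (Pttg1) at -1.83 (SE 0.14) in the authors' deposited table, and Bub3 was the exception already given.

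Centromere and kinetochore genes were lower in 7 of 7 cases, with the lowest group median, -2.55. The Ndc80 complex, the 4-part rod that grips microtubules, was uneven in the authors' deposited table, from Spc24 at -3.08 (SE 0.19) through Ndc80 at -2.55 (SE 0.19) and Nuf2 at -2.33 (SE 0.17) to Spc25 at -2.13 (SE 0.23). Spc25 had the lowest mean normalized count of the 50 genes, 147.7, and the widest SE. The kinetochore motor Cenpe (-2.63, SE 0.18) and the large corona protein Cenpf (-2.72, SE 0.19) lay within their errors of each other in the authors' deposited table. Cenpa, the histone H3 variant that marks centromeres, fell least in this group (-1.94, SE 0.14, authors' deposited table).

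The chromosomal passenger complex, which corrects faulty attachments, was lower in 4 of 4 cases and fell into pairs in the authors' deposited table. Survivin (Birc5, -2.82, SE 0.12) and borealin (Cdca8, -2.74, SE 0.13) fell 7.05-fold and 6.67-fold, whereas the kinase Aurkb (-1.88, SE 0.15) and its scaffold Incenp (-1.84, SE 0.10) fell 3.67-fold and 3.57-fold in the authors' deposited table. Genes of chromosome structure were lower in 7 of 7 cases (median -2.25). Topoisomerase Top2a had the largest fall among them (-2.88, SE 0.12), from an implied 5932 to 804 normalized counts, in the authors' deposited table. Condensin I and II share Smc2 (-2.25, SE 0.13) and Smc4 (-2.37, SE 0.15), and of the condensin I subunits Ncapg was at -2.79 (SE 0.16), Ncaph at -2.04 (SE 0.10) and Ncapd2 at -1.53 (SE 0.11) in the authors' deposited table. Mki67, whose protein coats mitotic chromosomes and is the standard proliferation marker, was at -2.05 (SE 0.19), from an implied 5472 to 1319, in the authors' deposited table.

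Spindle motors and spindle proteins were lower in 8 of 8 cases (median -2.48). Hmmr, which binds microtubules, had the largest fall (-2.82, SE 0.12) and the plus-end motor Kif18a the smallest (-2.02, SE 0.20) in the authors' deposited table. Kif11, the motor that pushes spindle poles apart, was at -2.72 (SE 0.13) in the authors' deposited table. Between them in the authors' deposited table were Nusap1 (-2.55), the chromokinesin Kif4 (-2.48), Kif20b (-2.47), the pole protein Aspm (-2.40) and the microtubule depolymerase Kif2c (-2.15). Cytokinesis genes were lower in 6 of 6 cases (median -2.43). Anillin (Anln), which organises the contractile ring, had the largest fall of all 50 (-3.09, SE 0.11, adjusted p = 1.0e-159 by the authors' DESeq2 test), from an implied 2696 to 316, in the authors' deposited table. Ect2, the activator of RhoA at the midzone, was at -3.03 (SE 0.14) and its partner Racgap1 at -2.27 (SE 0.12) in the authors' deposited table. Kif23, which pairs with Racgap1, was at -2.56 (SE 0.13), the midzone bundler Prc1 at -2.30 (SE 0.10) and the motor Kif20a at -1.86 (SE 0.11) in the authors' deposited table.

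Other genes of these processes went mostly the same way. Of 113 other mitotic and cell cycle genes, 95 were lower, 3 higher and 15 not listed, with a median log2 fold change of -1.85 over the 98 listed. Other kinetochore and centromere genes were lower in 29 of 33 cases, with 4 not listed (median -2.28). The scaffold Casc5, now named Knl1, was at -3.01 (SE 0.19) and Oip5, which helps load Cenpa, at -2.86 (SE 0.34) in the authors' deposited table. Other spindle and cytokinesis genes were lower in 23 of 23 cases (median -2.15), led by Depdc1b (-3.0, SE 0.40) and Kif15 (-2.83, SE 0.15) in the authors' deposited table. Other mitotic regulators were lower in 21 of 24 cases (median -1.50), led by Pbk (-3.17, SE 0.18) and Trip13 (-2.79, SE 0.18), while the anaphase-promoting complex subunit Anapc4 was higher (0.45, SE 0.12) in the authors' deposited table.

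Cohesin and the other condensin genes were lower in 10 of 15 cases, with 5 not listed and a smaller median, -0.80. Cdca5, sororin, which holds cohesin on chromosomes, was at -2.21 (SE 0.15) and the condensin II subunit Ncapg2 at -1.85 (SE 0.12) in the authors' deposited table. Transcription factors of cell cycle genes were lower in 12 of 18 cases, higher in 2 and not listed in 4 (median -0.94). In that list Mybl2 (-2.83, SE 0.14), which acts with Foxm1 on mitotic promoters, and the E2F repressor E2f7 (-3.02, SE 0.18) fell in the authors' deposited table. Rbl2, the p130 pocket protein of the DREAM complex that silences these promoters in resting cells, was higher (0.86, SE 0.12), and so was the DREAM subunit Lin37 (0.78, SE 0.14), in the authors' deposited table. They were the only 2 higher genes of that list, and its other genes of the DREAM complex were lower or not listed. Whether the complex as a whole changed was not tested. DNA replication genes were lower in 37 of 37 cases with a median of -1.71, against -2.39 for the 50 mitosis genes. These comparisons share all their libraries, and the difference between the lists was not tested.

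The promoters of the genes were searched for the motifs known from mitotic promoters. These are the CCAAT box bound by NF-Y and the cell cycle homology region, spelled here as TTTGAA or TTTAAA. The DREAM and Myb-MuvB complexes bind to the cell cycle homology region. A RefSeq table for GRCm38.p6, the assembly of mm10, holds 300 bases around the annotated start (250 before and 50 after) for 41 of the 50 genes. Aurkb, Ccna2, Cdc25c, Foxm1, Incenp, Kif20a, Smc4, Spc24 and Tpx2 were not matched. The 100 bases before the start are printed for 7 of the 10 genes that hold both motifs within them, those with a single entry and a stretch that lies almost wholly outside the annotated gene, 5′ to 3′ on the gene's strand, with matches on either strand in capitals (ATTGG is CCAAT and TTCAAA is TTTGAA read on the other strand, and TTTAAA reads the same on both).
Ccnb1: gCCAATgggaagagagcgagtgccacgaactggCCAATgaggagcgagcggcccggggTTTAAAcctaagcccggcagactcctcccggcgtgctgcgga
Cdk1: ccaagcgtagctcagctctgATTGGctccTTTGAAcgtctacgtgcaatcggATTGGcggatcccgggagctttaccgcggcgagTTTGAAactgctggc
Plk1: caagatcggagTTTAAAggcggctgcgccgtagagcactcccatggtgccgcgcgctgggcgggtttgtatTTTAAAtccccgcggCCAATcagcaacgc
Cdc20: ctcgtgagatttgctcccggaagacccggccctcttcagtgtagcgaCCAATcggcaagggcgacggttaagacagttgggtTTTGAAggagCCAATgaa
Cenpa: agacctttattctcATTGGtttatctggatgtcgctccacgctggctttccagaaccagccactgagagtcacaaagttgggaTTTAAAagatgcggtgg
Top2a: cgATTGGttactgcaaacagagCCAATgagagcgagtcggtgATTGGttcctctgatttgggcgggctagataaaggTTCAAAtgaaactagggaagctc
Kif11: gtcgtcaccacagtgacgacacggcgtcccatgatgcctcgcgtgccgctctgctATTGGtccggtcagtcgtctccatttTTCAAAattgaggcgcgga

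These stretches lie in GRCm38.p6 at chr13:100786487-100786586 (minus strand, Ccnb1), chr10:69352913-69353012 (minus, Cdk1), chr7:122159335-122159434 (plus, Plk1) and chr4:118437344-118437443 (minus, Cdc20). The others are chr5:30666786-30666885 (plus, Cenpa), chr11:99024190-99024289 (minus, Top2a) and chr19:37376282-37376381 (plus, Kif11). In Ccnb1 a pair of CCAAT boxes stands before a single TTTAAA, and in Top2a 3 boxes stand before a TTCAAA, while in the Plk1 stretch the only box follows both TTTAAA matches. Over the whole 300-base window, CCAAT was found in 30 of the 41 genes (73.2%), against 41.0% of the 26984 other genes in the table. TTTGAA or TTTAAA was found in 33 of 41 (80.5%), against 30.5% of other genes, and both in 28 of 41 (68.3%), against 12.1%. DNA replication genes, of which 30 were matched, held CCAAT in 66.7% but TTTGAA or TTTAAA in 30.0%. The 26984 other genes are all others with an entry, whether or not expressed in these cells. The motifs were known from mitotic promoters and the genes were chosen by name. High shares in the list therefore do not come from the measurements of this series. A match is a string of letters, not a bound site, and TTTGAA is short enough to occur often.

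The matches had preferred places, which the histogram of motif positions shows. Of 70 CCAAT matches, over all 44 windows of the 41 genes, 47 began within the 100 bases before the start, with a median first base at -67. Of 54 TTTGAA or TTTAAA matches, 37 began within 50 bases on either side of the start, with a median at -16. Hmmr, Ccnb2, Cdca8 and Top2a were among the 19 genes with several CCAAT matches in a window. Genes with both motifs had a median log2 fold change of -2.46 (28 genes), those with a promoter entry that lacked 1 or both had -2.33 (13 genes), and those without an entry -2.22 (9 genes). The differences between these medians were not tested.

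**Figure D2:**
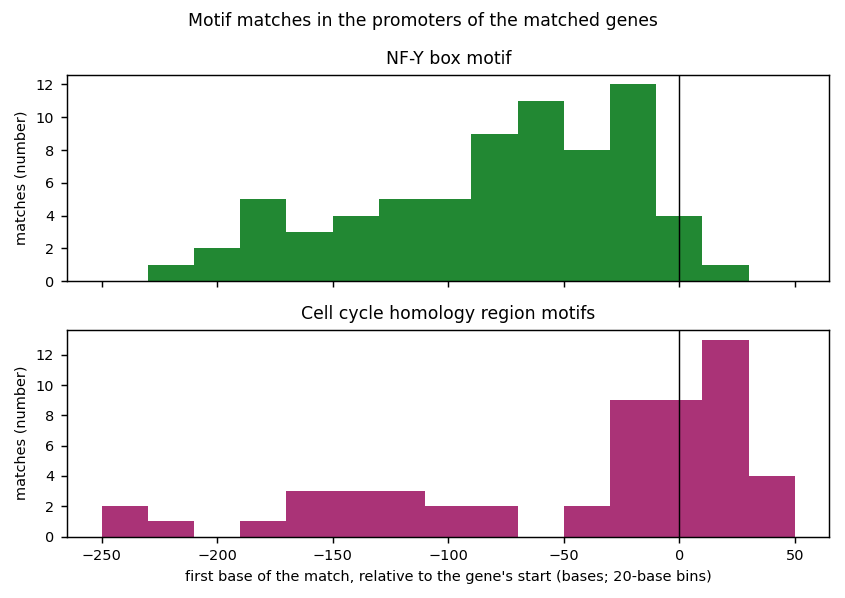
Number of motif matches (vertical axis) by the position of their first base relative to the annotated gene start (horizontal axis, bases, in bins of 20 bases), for the NF-Y box above and the cell cycle homology region motifs below, in the promoters of 41 genes. The upper matches lie mostly before the start (median -67) and the lower ones around it (median -16).

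The peak lists ask where m6A lay in these transcripts on each day. At day 0, 35 of the 50 genes (70.0%) had at least 1 listed peak, against 59.5% of all genes of the expression table. Of 5070 other genes of that table with an implied day 0 level in the range of the 50, 79.4% had one, so the share in the list was above that of all genes and below that of genes in the same range of levels. At day 4 only 8 of 50 (16.0%) had one, against 55.8% of that table. The 35 genes held 121 peaks at day 0 and the 8 held 17 at day 4. No gene had peaks at day 4 only, 27 had them at day 0 only, against 9.99% of the table's genes, and 15 had none on either day. Enrichment scores and unadjusted p-values of peaks are the authors' own, and scores are compared only within a list, since nothing in the sources says that the lists share a scale.

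The peaks were unevenly spread over the genes. At day 0 Mki67 held 19 peaks, Cenpf 15, Cenpe 10 and Aspm 9, together 53 of the 121 (43.8%). In the whole day 0 list 1.92% of the 7379 genes with a peak had 9 or more, and Mki67 ranked 5th by number. These numbers were not corrected for transcript length and count neighbouring short peaks singly, so they do not measure the amount of methylation. Another 19 genes had 2 to 5 peaks and 12 had 1. The median of the genes with a peak was 2 in the list and 2 over all genes. Genes with no peak on either day included Ccna2, Ccnb2, Cdk1, Bub1, Ndc80, Spc24, Spc25, Cenpa, Ncapg, Ncapd2 and Ect2, as well as Cdc25c, Pttg1, Kif18a and Nusap1.

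**Figure D3:**
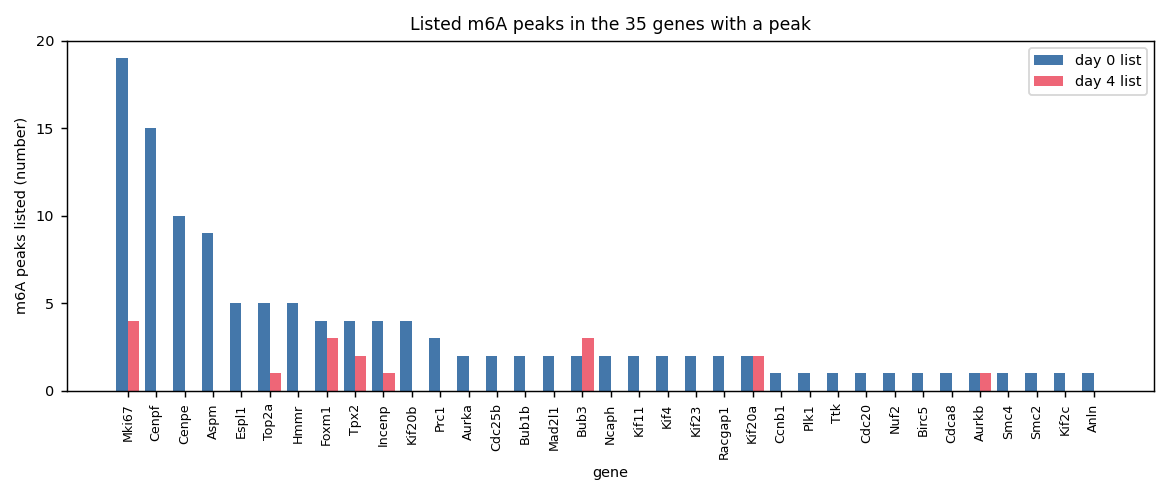
Number of listed m6A peaks (vertical axis, bars from 0) in each of the 35 genes with a peak, for the day 0 list and the day 4 list. Mki67 has 19 and 4, and 27 genes have bars at day 0 only. Bub3 is the only gene with more listed peaks at day 4 (3) than at day 0 (2). Its day 4 peaks include pieces of a single day 0 peak.

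In the genes with many peaks, the peaks mostly lay close together. In Mki67 most of the day 0 peaks followed each other on chromosome 7 between 135694566 and 135700850 (mm10), with scores from 1.88 to 8.44, and the longest, from 135689888 to 135693132, spanned 3245 bp. At day 4 this long peak was listed again, from 135690087 to 135693082, beside 3 short ones. In Cenpf the 15 peaks had scores of 4.615 to 12.7, and in Aspm the highest, 70.9, was the peak on chromosome 1 from 139479745 to 139480342. The highest day 0 score of the 50 genes was 398, at the single Nuf2 peak on chromosome 1 from 169498228 to 169498572, followed by 227 at the Kif11 peak on chromosome 19 from 37420270 to 37420617. The single day 0 peak of Aurkb, on chromosome 11 from 69048508 to 69050457, scored 211.

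Peaks at day 4 were listed in Mki67 (4), Foxm1 (3), Bub3 (3), Tpx2 (2), Kif20a (2), Top2a, Incenp and Aurkb (1 each). These 8 genes spread over the role groups: 2 of 10 entry genes, 1 of 8 checkpoint genes, 2 of 4 passenger complex genes, 2 of 7 chromosome structure genes and 1 of 6 cytokinesis genes had one. No centromere and kinetochore gene and no spindle motor or spindle protein gene had a day 4 peak, where 3 of 7 and 6 of 8 had one at day 0. In the whole list, 8 of the 35 genes with a day 0 peak (22.9%) had one at day 4. Counts this small cannot show a difference between role groups, and none was tested. The highest day 4 score was 151, at the Top2a peak on chromosome 11 from 98993146 to 98993294, inside the gene's best day 0 peak from 98992997 to 98993393. Of the 17 day 4 peaks, 16 overlapped a day 0 peak by at least 1 bp on the same strand. The share over all day 4 peaks was not computed. In Bub3, Foxm1 and Kif20a some day 4 peaks were pieces of a single day 0 peak. Those of Bub3 from 131571507 to 131571605 and from 131571653 to 131571702 lay in its day 0 peak from 131571507 to 131571702. The number of listed peaks is therefore not a number of separate regions. Of the 121 day 0 peaks, 13 (10.7%) overlapped a day 4 peak, against 70.2% of all day 0 peaks. Without Mki67, Cenpf, Cenpe and Aspm, 9 of 68 (13.2%) did.

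The peaks that were listed again were the stronger ones of their genes. In each of the 7 genes with several day 0 peaks and a day 4 peak, the highest-scoring day 0 peak overlapped a day 4 peak. The same held for 96.9% of 4450 other such genes. The 13 shared day 0 peaks had a median score of 25.4 and the 108 others 11.7, against 21.4 for all day 0 peaks, and the ranges overlapped, since the Nuf2 peak was not shared.

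Peak loss moved together with the input level. The day direction of the fold changes was itself read from this relation in other genes, so the values below are no separate check of it. The 8 genes with a day 4 peak had a median implied level of 614 normalized counts at day 4 (153 to 1319), the 27 genes that had peaks at day 0 only a median of 193 (69.8 to 573), and the ranges overlapped. Their median log2 fold changes were -1.96 and -2.47. At day 0 the 35 genes with a peak included levels down to 502, and the 15 without one had a median of 705 (238 to 1828). Among other genes of the expression table with a day 0 peak, 83.7% had a day 4 peak, but among those at least 4-fold lower at day 4 only 54 of 217 (24.9%) did, compared with 4 of 30 (13.3%) such genes of this list. DNA replication genes, which fell less, had a day 4 peak in 17 of the 32 with a day 0 peak (53.1%).

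Shares at a like implied level at day 4 were as follows. Under 100 normalized counts, 0 of 2 genes of the list with a day 0 peak had a day 4 peak, compared with 15.2% of 217 other table genes. Between 100 and 200 normalized counts, 1 of 13 genes of the list with a day 0 peak (7.69%) had a day 4 peak, compared with 46.7% of 362 other table genes. Between 200 and 400 it was 2 of 13 (15.4%), compared with 73.0% of 688 others. Between 400 and 800 it was 2 of 4, compared with 87.9% of 973 others, and from 800 to 1600 it was 3 of 3, compared with 94.3% of 1089 others. The share in the list was thus the lower one in the 4 bands up to 800 and not in the highest band. The other genes of these bands include many that rose or changed little, the counts in the list are small, and no test was made of these differences. The part of the lower input level in the missing day 4 peaks was not tested.

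**Figure D4:**
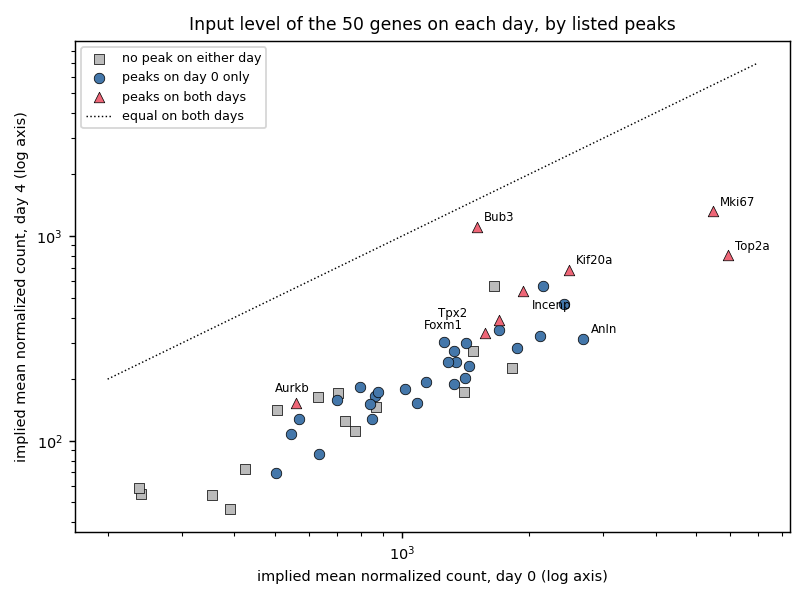
Implied mean normalized count of each of the 50 genes at day 0 (horizontal, log axis) and day 4 (vertical, log axis), with symbols for genes with peaks on both days, on day 0 only or on neither day; the dotted line marks equal levels. All points lie below the line, and the genes with peaks on both days reach from 153 (Aurkb) to 1319 (Mki67) at day 4.

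All 121 and all 17 peaks lay inside the RefSeq span of their gene. At day 0, 17 of 121 (14.0%) had their centre no more than 1000 bp from the 3′ end of the gene, against 26.0% of all peaks in protein-coding genes, and 8 of 121 (6.61%) within 1000 bp of the 5′ end, against 5.50%. The 4 many-peak genes carried this low share, which was 16 of 68 (23.5%) without them. Counted by gene, 15 of the 35 had a day 0 peak near the 3′ end, among them Nuf2, Birc5, Kif2c, Kif4, Smc2, Aurka, Prc1 and Ccnb1. The share by gene over all genes was not computed, so 15 of 35 cannot be called high or low. At day 4, 8 of 17 peaks (47.1%) were near the 3′ end, against 28.0% of all peaks, and none was near the 5′ end. The 8 peaks lay in 5 of the 8 genes, 3 of them in Bub3. They include the pieces of single day 0 peaks in Bub3 and Kif20a, each counted on its own. Distances run along the genome with introns, and an annotated end can be that of a rare transcript.

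**Figure D5:**
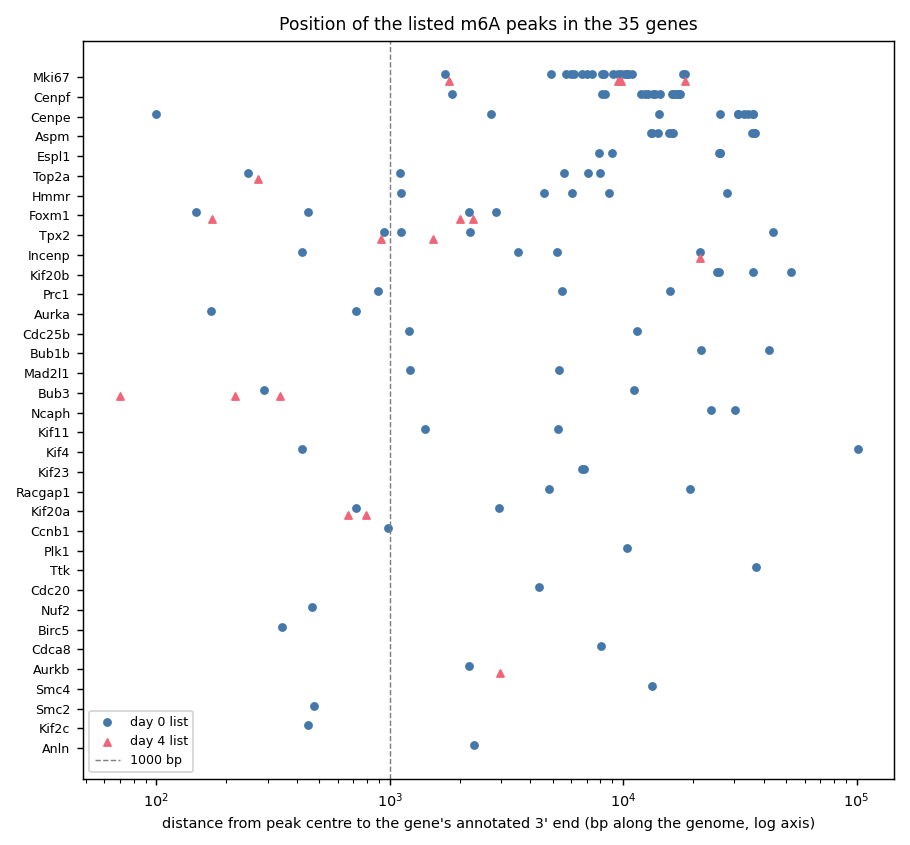
Distance from the centre of each listed peak to the annotated 3′ end of its gene (horizontal, bp along the genome, log axis) for the 35 genes with a peak, ordered by their number of day 0 peaks, with circles for the day 0 list and triangles for the day 4 list. Most triangles sit near a circle of the same gene, and 8 of 17 triangles lie left of the dashed line at 1000 bp.

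The last comparison asks which sites gained or lost m6A between the days. The authors' deposited table calls 2561 sites at a false discovery rate (FDR) under 0.05, 6.96% of the 36796 that the adjustment implies were tested. In the 50 genes 5 sites were called, 4 higher and 1 lower at day 4, where 4.79% of all tested sites were called higher. How many of the tested sites lay in these genes is unknown, so their share called cannot be given. Among all called sites 68.8% were higher, near the 4 of 5 in the list. Of the genes with a day 0 peak, 14.3% in this list had a called site and 25.5% over the whole day 0 list. Of the 108 day 0 peaks without a day 4 partner, 2 overlapped a called site, 1 of them a gain, and over all genes 4.45% of such peaks overlapped a called site.

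The single loss lay in Kif11 on chromosome 19 from 37420270 to 37420617, at exactly the coordinates of its day 0 peak of score 227, with a log fold change of -0.86 (FDR 0.0194) in the authors' deposited table. Which base that logarithm has is not stated there. The strongest call was a gain in Top2a on chromosome 11 from 99001063 to 99001428 (2.45, FDR 1.1e-04) in the authors' deposited table, just beyond a day 0 peak of score 5.205 that ends at 99001013. Cdc20 had a gain on chromosome 4 from 118437195 to 118437293 (4.29, FDR 0.0328) in the authors' deposited table. That site holds the gene's only day 0 peak, from 118437244 to 118437293, whose centre is 74 bp from the 5′ end, next to the promoter stretch printed above. Tpx2 had a gain on chromosome 2 from 152895173 to 152895222 (3.85, FDR 0.0454) and Racgap1 on chromosome 15 from 99621188 to 99621385 (0.98, FDR 0.0351) in the authors' deposited table, both outside every listed peak. None of the 5 sites overlapped a day 4 peak, so the 4 gains in the authors' deposited table stand at places where the day 4 list has no peak. The share of all called gains without a day 4 peak was not computed. By a different measure, 28.1% of all called gains overlapped no listed peak on either day. In this list that held for every gain but the 1 in Cdc20. Input RNA of the 5 genes was 4.39-fold to 7.38-fold lower at day 4, and its part in these calls was not tested.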

How the data were processed

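The series has 3 input and 3 m6A pull-down libraries at each of day 0 and day 4, grouped by title. The values are the authors' deposited tables. HISAT2 2.1.0, DESeq2 1.18.1 and the build mm10 are named per the submitters' processing notes. Neither how peaks were called nor how sites were tested is stated there. Per the file headers, each peak has an enrichment score and an unadjusted p-value. The expression table holds, per the file headers, a mean normalized count (a signal averaged over libraries), a log2 fold change with its standard error, a test statistic treated as a score, a p-value and an adjusted p-value. In the deposited methylation table the log fold change is handled as a score of unknown base. Both comparison tables list only calls under 0.05, so an unlisted gene may have been tested without a call or left untested.

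Headers name no direction. Day 4 over day 0 was read from other genes: 95.8% of the 770 listed genes with day 0 peaks only were lower, and 6.24% of the 497 with day 4 peaks only. Of sites on day 4 peaks only, 98.8% were higher, and of sites on day 0 peaks only, 76.1% were lower. The number tested was derived from adjusted p times rank over p. Implied levels assume 3 libraries per day. No test was made here: p-values are the authors'. The members and lists were chosen with earlier results of these data known. By rule, all 50 genes may be named, and from each other list the 2 largest changes in each direction. In the lists, 4 genes were found under an older symbol. Python 3.11.15, numpy 2.4.6, pandas 2.3.3 and matplotlib 3.10.9 were used, and the counting steps were tested on simulated data. DRACH motifs and positions in coding or untranslated regions were not analysed here.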

Additional observations from a re-analysis of the deposited data

How the results depend on the processing

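No file holds a value per library, so no replicate could be left out. No paired analysis was possible because the deposited tables carry no column per library. All 50 genes remained lower at an adjusted p under 0.01, at a mean normalized count of at least 100 and without lines that share an identifier, and 49 at a change of at least 2-fold, which Bub3 (-0.44) did not reach. The first 3 settings could remove no gene, so they say nothing on robustness. The largest adjusted p of the list was 1.3e-05 (Bub3, authors' DESeq2 test), its lowest mean normalized count was 147.7, and no gene shared an identifier. With only peaks above the median score of each list, 42 of the 121 day 0 peaks remained and the share found again at day 4 was 19.0% in place of 10.7%, while 27 and 7 genes kept a peak at day 0 and day 4. Requiring that an overlap cover at least 50% of both peaks gave 3.31%, and at least 50% of the shorter peak 10.7%. The shares over all day 0 peaks were not computed for these overlap rules or for peaks above the median score. At an unadjusted p under 1e-05, 113 day 0 and 17 day 4 peaks remained. At a false discovery rate under 0.01, 1 site remained, the gain in Top2a, and 2 of the 5 sites (1 of the 4 gains) lay on a listed peak. The share of promoters with TTTGAA or TTTAAA was 29.3% in the 100 bases before the start in place of 80.5%, and that with both motifs 24.4% in place of 68.3%, against 11.2% and 2.06% of other genes, since many matches lie after the start. Leaving out Mki67, Cenpf, Cenpe and Aspm, chosen after the data were seen, moved the share of day 0 peaks near the 3′ end from 14.0% to 23.5%. Within 500 bp of the 3′ end in place of 1000 bp, the share was 9.92% at day 0 and 29.4% at day 4, in place of 14.0% and 47.1%. Library depth is unknown, so a missing day 4 peak is not evidence of absent methylation.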
